A study of Mus musculus with 11 samples.

Results

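NRF2 is the transcription factor encoded by Nfe2l2, and the genes described here are Nfe2l2 and 9 genes listed as its targets, which are Hmox1, Sqstm1, Nqo1, Gclm, Gclc, Txnrd1, Srxn1, Slc7a11 and Esd. They were taken by name from the table of transcript levels, in which all 10 were found among 25562 genes. The levels come from 11 RNA libraries of CD8+ T cells, the cytotoxic arm of the lymphocytes, purified by kit from C57BL/6 mouse spleen. Every group was pretreated for 22 h and then activated for 24 h with 1 µg/mL anti-CD3 and 0.5 µg/mL anti-CD28 antibody, in TexMACS medium with 10% serum and 50 µM 2-mercaptoethanol, a thiol reductant. The labels name 100 IU/mL interleukin-2 as present or absent without saying in which group. The 4 AOAH libraries received ethanol and 10 µg/mL of recombinant human acyloxyacyl hydrolase with a His tag, a lipase that removes acyl chains from lipopolysaccharide and phospholipids. The 3 PC libraries received 60 µM PC16:0-20:4, a phosphatidylcholine that carries palmitic and arachidonic acid, and then a protein buffer of 10% glycerol in PBS. The 4 vehicle libraries received ethanol and that buffer. No glycerol share is given for AOAH, so a buffer difference cannot be told apart from the enzyme, and the labels conflict on whether AOAH was added in the pretreatment or at activation and on whether anti-CD3 was bound to plates or beads. Nothing in the labels ties the libraries to separate animals or cultures, so p-values measure the spread between these libraries only, which may be technical.

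In resting cells the adaptor KEAP1 holds NRF2 for ubiquitination by a CUL3 ligase, so that little NRF2 protein accumulates. Electrophiles and oxidants modify cysteines of KEAP1, NRF2 escapes degradation, enters the nucleus, pairs with a small MAF protein and binds antioxidant response elements. BACH1 and BACH2 compete for such elements, and p62, the product of Sqstm1, binds KEAP1 and thereby frees NRF2. NRF2 is regulated mainly at the protein level, and no protein was measured here. In T cells the glutathione and thioredoxin systems that NRF2 serves supply the reducing power used for growth and DNA synthesis after activation.

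Depth per library is unknown because the values are TPM, a library's transcripts shared out by length-corrected abundance. The libraries had between 11423 and 11739 genes at 1 TPM or more, and pairs of libraries within a group correlated at 0.992 to 0.994 across genes. In the authors' deposited tables, which give normalized counts, mean counts of the 10 genes ran from 17.0 for Nqo1 to 10990 for Txnrd1 in the AOAH comparison. The label of CD8 T cells was checked on 6 T cell receptor, CD3 and CD8 genes, whose summed level was 1446 to 1475 TPM with AOAH, 1869 to 1925 TPM with PC and 1610 to 1658 TPM with vehicle. Those markers moved in the same order as most of the genes below, and their part in the results was not tested. Of 12 macrophage and myeloid markers, 10 were under 1 TPM in every library. Their summed level was 4.25 to 5.08 TPM with AOAH, 6.36 to 7.36 TPM with PC and 4.88 to 8.29 TPM with vehicle, mostly Cd68, and Lyz2 was 0.05 to 0.79, 0.89 to 2.55 and 0.57 to 1.72 TPM in the 3 groups. Spic and Adgre1, defining genes of spleen macrophages, were at most 0.19 TPM and 0.09 TPM in any library. Macrophages express Hmox1 and ferritin strongly, and in bulk RNA a change in the number of cells of a type and a change in their RNA per cell cannot be told apart.

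The antioxidant response element can be searched for in sequence, and the promoters of 4 genes are shown because they hold the element's core or a related motif. RefSeq promoters of build GRCm38.p6 were matched for 8 of the 10 genes, in 10 windows from 250 bases before to 50 after a start site. The deposited tables use mm39, so these coordinates belong to the RefSeq build only. The core was taken as TGACNNNGC and searched on both strands, as were the AP-1 site TGACTCA, whose other strand reads TGAGTCA, the cyclic AMP element TGACGTCA and the element read by CHOP and ATF4, TGATGNAA. The core and the AP-1 site can overlap, but no 2 matches overlapped in these genes. The 250 bases before each start are given 5' to 3' on the gene's strand, with matches in capitals.
Nfe2l2, chr2:75704664-75704913, minus strand: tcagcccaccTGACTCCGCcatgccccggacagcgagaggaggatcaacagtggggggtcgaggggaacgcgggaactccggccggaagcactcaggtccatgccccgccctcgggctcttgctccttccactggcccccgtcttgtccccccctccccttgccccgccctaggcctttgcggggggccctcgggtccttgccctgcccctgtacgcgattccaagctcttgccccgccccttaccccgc
Gclm, chr3:122245307-122245556, plus strand: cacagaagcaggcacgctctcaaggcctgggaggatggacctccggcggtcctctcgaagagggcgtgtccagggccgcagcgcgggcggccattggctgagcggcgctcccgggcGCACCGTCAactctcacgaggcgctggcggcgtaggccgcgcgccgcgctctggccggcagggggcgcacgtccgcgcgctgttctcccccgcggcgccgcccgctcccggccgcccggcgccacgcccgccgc
Srxn1, chr2:152105274-152105523, plus strand: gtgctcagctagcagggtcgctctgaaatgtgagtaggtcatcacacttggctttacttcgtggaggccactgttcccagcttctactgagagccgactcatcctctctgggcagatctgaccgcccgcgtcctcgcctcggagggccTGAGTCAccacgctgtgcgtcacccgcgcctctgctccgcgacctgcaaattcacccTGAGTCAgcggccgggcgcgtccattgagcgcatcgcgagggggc
Slc7a11, chr3:50443614-50443863, minus strand: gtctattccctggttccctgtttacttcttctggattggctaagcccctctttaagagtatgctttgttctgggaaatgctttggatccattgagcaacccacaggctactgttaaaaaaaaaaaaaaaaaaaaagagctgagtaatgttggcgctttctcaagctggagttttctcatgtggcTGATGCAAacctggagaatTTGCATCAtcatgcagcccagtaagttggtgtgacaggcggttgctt

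The core was present in 4 of the 8 matched genes, against 14% of 27025 genes with a promoter in the same table. In Nfe2l2 it reads TGACTCCGC and begins 240 bases before the start, and in Gclm it reads TGACGGTGC on the opposite strand, 134 bases before the start. Txnrd1 holds TGACAAAGC in the second of its 3 windows. Srxn1, sulfiredoxin, has its core match just after the start, outside the stretch shown, and 2 AP-1 sites at 102 and 45 bases before it, a motif found in 5.2% of the 32851 windows. Read on into the next bases, the site at 45 is TGAGTCAGC, which has G where the core as searched has C. The search therefore did not count it as a core. Slc7a11, the cystine carrier, holds no core in the window but has TGATGCAA on both strands, at 66 and 47 bases before the start, a motif found in 3.97% of windows. The windows of Sqstm1, Nqo1 and Esd held none of these motifs, and Hmox1 and Gclc were not matched. A match describes letters in the sequence and not binding, and NRF2 elements of several targets are known to lie farther upstream.

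The level of each gene differed far more between genes than between treatments. The order from high to low was Esd, Txnrd1, Sqstm1, Gclm, Gclc, Nfe2l2, Srxn1, Hmox1, Nqo1 and Slc7a11, the same in all 11 libraries, and within a group no neighbours in that order overlapped. Vehicle means ran from 353 ± 14.5 TPM for Esd (SD, n = 4) to 0.153 ± 0.0189 TPM for Slc7a11 (SD, n = 4).

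Against vehicle, most of these genes were higher with PC, and most did not pass the test with AOAH. Differences were tested with limma on log2(TPM + 1), in which a pseudocount of 1 shrinks the changes of low genes, at an adjusted p under 0.05 over all genes of at least 1 TPM on average. With PC, 7 of 9 tested genes were higher and 0 lower, where 8.26% of 11630 genes were called higher, 11.2% lower and 19.5% in either direction. Each of the 7 was higher in 3 of 3 batches. In 8 of the 9 the PC and vehicle libraries did not overlap, as in 39.2% of all genes. The median change was 0.25 on the log2 scale, against -0.0090 over all genes tested. Nqo1 passed the level filter only through the PC libraries, and without it the count was 6 of 8. Blocking on batch left 4 of 9 called, and the count was 4 without PC 3, 4 without vehicle 1 and 3 without vehicle 3; Hmox1, Sqstm1 and Esd were called in all of these. With AOAH, 1 of 8 tested genes was higher and 2 were lower, where 13.1% of 11561 genes were called higher, 12.1% lower and 25.2% in either direction. The AOAH and vehicle libraries did not overlap in 3 of the 8, as in 28.8% of all genes, so neither count sets these genes apart with AOAH. Blocking on batch left 1 of 8 called with AOAH, Sqstm1, as did leaving out AOAH 2, 3 or 4 or vehicle 2 or 4. The median with AOAH was -0.15, against 0.010 over all genes. Both comparisons use the vehicle libraries 1 to 3, and vehicle 4 enters only the AOAH comparison, as its label lists only that.

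**Figure D1:**
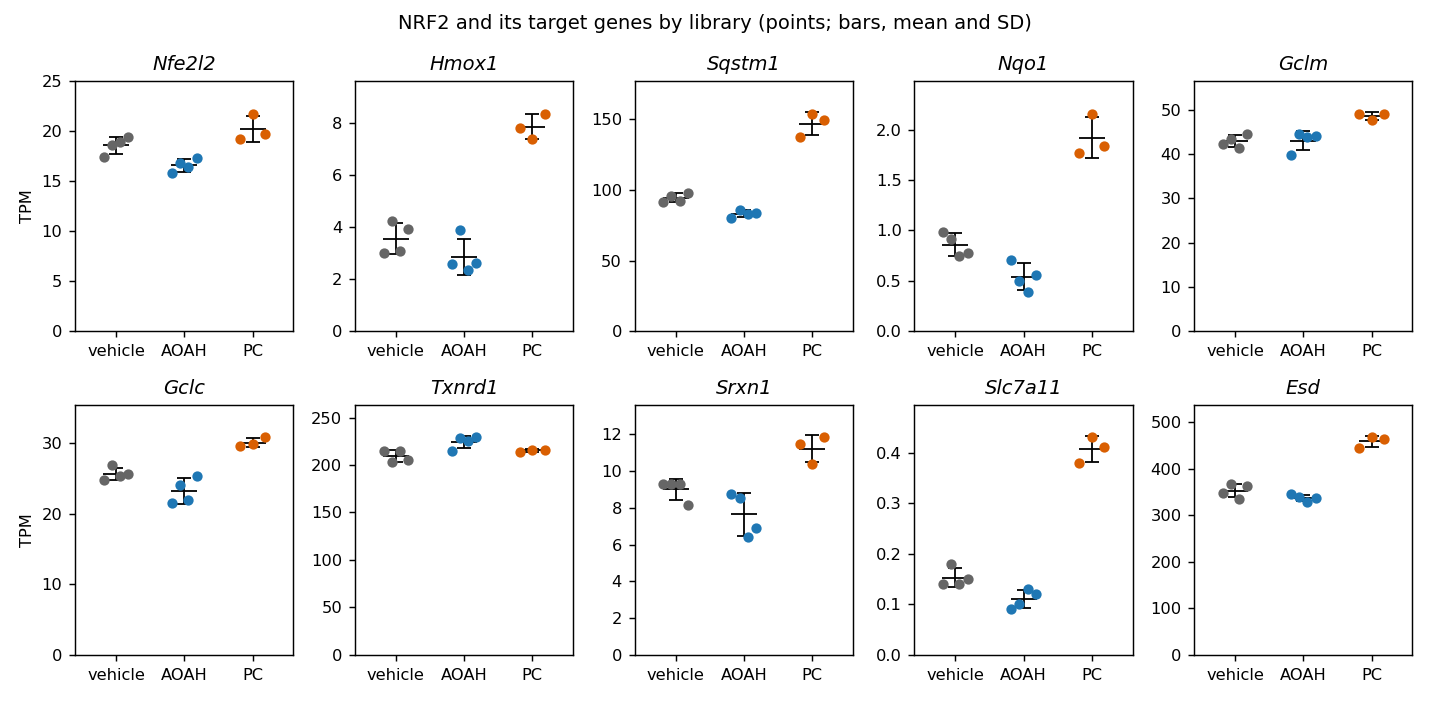
Level of each gene in TPM (y axes from 0) in every library (points) of the vehicle, AOAH and PC groups, with the mean and SD as bars. In 9 of the 10 panels the PC libraries sit highest on average, and Txnrd1 is the exception; Hmox1 lies at 7.41 to 8.37 TPM with PC and at 3.02 to 4.24 TPM with vehicle.

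**Figure D2:**
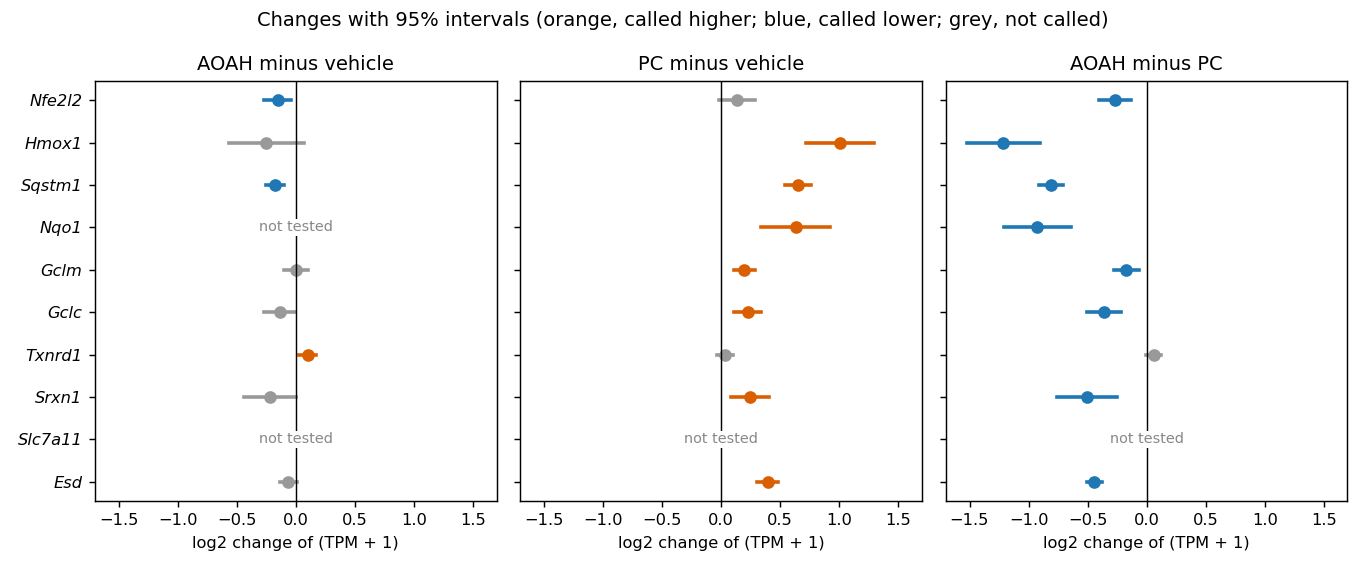
Log2 change of TPM + 1 for each gene (points) with 95% intervals (bars) in the 3 comparisons, coloured by the limma call. With PC 7 genes lie above 0 and are called, and for AOAH against PC 8 lie below 0 and are called.

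Nfe2l2, the gene of NRF2 itself, varied over a narrow range. It stood at 15.8, 16.8, 16.4 and 17.4 TPM with AOAH, at 19.3, 21.8 and 19.7 TPM with PC and at 17.5, 18.6, 18.9 and 19.4 TPM with vehicle. The AOAH libraries all lay below the vehicle libraries, and PC 1 lay below vehicle 4. With AOAH Nfe2l2 fell by 0.15 on the log2 scale (SE 0.050, limma adjusted p = 0.0491). That call was kept in 5 of 17 alternatives, among them 1 of the 8 fits without a library, and a fit that kept batch as a block lost it (adjusted p = 0.0647). With PC the change was 0.14 (95% interval -0.017 to 0.29, limma adjusted p = 0.193).

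The genes of proteins that restrain or partner NRF2 were tested as a list, and the counts of this and the next lists are to be read against all genes (8.26% higher and 11.2% lower with PC, 13.1% higher and 12.1% lower with AOAH). Of 14 tested regulators and partners, 2 were higher and 0 lower with PC, which is near that share, and 0 were higher and 1 lower with AOAH. Keap1, the sensor, lay between 34.4 and 38.4 TPM in all 11 libraries and differed by -0.0015 with PC (95% interval -0.088 to 0.085) and by -0.060 with AOAH (95% interval -0.15 to 0.028). Bach1, the repressor that competes at NRF2 elements and releases them on binding heme, was 6.93 to 8.46 TPM with AOAH against 8.66 to 9.64 TPM in vehicle libraries and fell by 0.30 (limma adjusted p = 0.0161). With PC the change of Bach1 was 0.12 (limma adjusted p = 0.319). Bach2, its relative that holds lymphocytes in less differentiated states, rose by 0.42 with PC (24.0 to 28.3 TPM against 17.6 to 19.8 TPM in vehicle 1 to 3, limma adjusted p = 0.0127). With AOAH Bach2 was 18.95 to 24.2 TPM against 16.86 to 19.83 TPM in vehicle libraries and was not called with limma. The authors' deposited table called it higher with AOAH (0.20, adjusted p = 0.0141) and Crebbp lower (-0.21, adjusted p = 0.0422). With PC the authors' deposited table also called Mafg higher (0.26, adjusted p = 0.0349). Nfe2l1, a related factor that controls proteasome genes, rose by 0.28 with PC (limma adjusted p = 0.0245), a call kept in 11 of 16 alternatives and lost without PC 1, PC 2, vehicle 1 or vehicle 3.

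Hmox1, heme oxygenase, which opens heme to release iron, carbon monoxide and biliverdin, showed the largest tested change of the 10 genes with PC on this scale. Its PC libraries read 7.82, 7.41 and 8.37 TPM, its vehicle libraries 3.02, 4.24, 3.08 and 3.92 TPM, and its AOAH libraries 2.57, 3.89, 2.35 and 2.62 TPM. Every PC library was above every other library, and AOAH 2 lay among the vehicle libraries. The rise with PC was 1.01 on the log2 scale (SE 0.12, limma adjusted p = 0.00258), and the ratio of mean TPM was 2.28. It was called in all 16 alternatives, with the change between 0.61 at a pseudocount of 5 and 1.18 at 0.1. With AOAH the change was -0.25 (95% interval -0.57 to 0.070, limma adjusted p = 0.232), lower in 4 of 4 batches.

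The ferritin genes, which store the iron that heme breakdown frees, rose with PC and fell with AOAH. Ftl1, the light chain, was 1303 to 1348 TPM with PC, 1042 to 1089 TPM in vehicle libraries and 974 to 1007 TPM with AOAH. It rose by 0.33 with PC (limma adjusted p = 6.84e-04) and fell by 0.10 with AOAH (limma adjusted p = 0.00682), with no overlap between any of the 3 groups. Fth1, the heavy chain, rose by 0.17 with PC (limma adjusted p = 0.00917) and fell by 0.15 with AOAH (limma adjusted p = 0.00647). Hmox2, the constitutive heme oxygenase, went the other way with AOAH, rising by 0.17 (limma adjusted p = 0.0179), a call that the batch block (adjusted p = 0.0559) and quantile normalization ended. Of the 7 tested heme and iron genes, 2 were higher and 0 lower with PC, and 1 was higher and 2 lower with AOAH, while the median of the list was -0.10 and -0.045. The summed myeloid markers given above were higher with PC than with AOAH in every library and overlapped between PC and vehicle, and Lyz2 alone was higher on average with PC than with vehicle (change 0.48, limma adjusted p = 0.313). The part of such cells in the Hmox1 and ferritin values was not tested.

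Sqstm1 encodes p62, a cargo receptor of autophagy that also binds KEAP1. It read 138, 154 and 149 TPM with PC, 91.3, 95.9, 92.1 and 98.0 TPM in vehicle libraries and 80.01, 86.0, 83.1 and 83.8 TPM with AOAH. No library of 1 group lay within the range of another. Sqstm1 rose by 0.65 with PC (SE 0.047, limma adjusted p = 7.42e-04) and fell by 0.18 with AOAH (SE 0.034, limma adjusted p = 0.00569), and both calls held in every alternative run.

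Of 11 other tested autophagy receptors and adaptors, 4 were higher and 0 lower with PC, and 0 were higher and 4 lower with AOAH. In each comparison the other 7 were not called, and among those with AOAH 2 genes, Gabarapl1 (0.24, limma adjusted p = 0.0931) and Becn1 (0.026, limma adjusted p = 0.660), had a change above 0. Batch as a block left 2 and 3 of these calls. Map1lc3a, an LC3 protein of the autophagosome membrane, was 4.35 to 4.59 TPM with PC against 1.92 to 2.79 TPM with vehicle, a rise of 0.81 (limma adjusted p = 0.00210). Calcoco1, an autophagy receptor, rose by 0.43 with PC (limma adjusted p = 0.00476) and fell by 0.72 with AOAH (limma adjusted p = 5.04e-04). Gabarap, of the LC3 family, fell by 0.24 with AOAH (limma adjusted p = 6.03e-04), and its rise of 0.14 with PC (limma adjusted p = 0.0225) was lost with the block (adjusted p = 0.0624). Map1lc3b fell by 0.25 with AOAH and rose by 0.21 with PC (limma adjusted p = 0.0241 and 0.0417), and the block ended both calls. Of 6 fits without a library, the rise of Map1lc3b with PC was kept in 0 and that of Gabarap in 2. The fall of Map1lc3b with AOAH was kept in 4 of 8 such fits. The kinase gene Ulk1, which starts autophagosome formation, fell by 0.25 with AOAH (limma adjusted p = 0.00621). In the authors' deposited tables the 4 falls with AOAH passed at an adjusted p under 0.05. Of the 4 rises with PC only that of Calcoco1 passed there (adjusted p = 0.0113). Map1lc3a, Map1lc3b and Gabarap did not pass with PC in the authors' deposited table (adjusted p = 0.0874, 0.120 and 0.223).

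The glutathione genes of the set code for the 2 subunits of glutamate-cysteine ligase, which makes the first bond of glutathione, and for the carrier that brings in cystine. Gclc, the catalytic subunit, read 29.6, 29.8 and 30.8 TPM with PC, 24.8, 26.9, 25.3 and 25.6 TPM in vehicle libraries and 21.5, 24.1, 22.0 and 25.4 TPM with AOAH. The PC libraries were above all others, and the AOAH and vehicle libraries overlapped. Gclc rose by 0.22 with PC (SE 0.048, limma adjusted p = 0.0209), and with AOAH the change was -0.14 (limma adjusted p = 0.118). Gclm, the modifier subunit, read 49.1, 47.6 and 49.0 TPM with PC, 42.2, 43.3, 41.4 and 44.5 TPM in vehicle libraries and 39.8, 44.5, 43.8 and 44.1 TPM with AOAH. It rose by 0.19 with PC (SE 0.038, limma adjusted p = 0.0139), and with AOAH it differed by 0.0045 (95% interval -0.097 to 0.11, limma adjusted p = 0.957). In the fit that blocks on batch neither rise with PC passed (adjusted p = 0.0573 for Gclc and 0.0525 for Gclm). Without PC 3, vehicle 1 or vehicle 3 both calls were lost, and without PC 2 that of Gclc was.

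Slc7a11, the cystine carrier whose promoter is shown above, lay under the 1 TPM filter and was not tested in these fits. It was 0.38, 0.43 and 0.41 TPM with PC, 0.14, 0.18, 0.14 and 0.15 TPM in vehicle libraries and 0.09, 0.10, 0.13 and 0.12 TPM with AOAH. The 3 groups did not overlap, at levels where the table's step of 0.01 TPM is itself coarse. With no filter the change with PC was 0.29 (limma adjusted p = 0.0976) on a scale that understates it. In the authors' deposited table of counts, Slc7a11 was higher with PC by 1.46 (adjusted p = 0.0191). Slc3a2, the heavy chain that carries it to the membrane and also serves other carriers, was 189 to 196 TPM with PC against 159 to 164 TPM in vehicle libraries and rose by 0.25 (limma adjusted p = 0.00205).

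Of 14 other tested glutathione genes, 1 was higher and 3 lower with PC, and 1 was higher and 3 lower with AOAH, where 19.5% and 25.2% of all genes were called in either direction. Glrx, glutaredoxin, which uses glutathione to reduce protein thiols, fell with both, to 30.8 to 33.1 TPM with PC and 34.3 to 39.7 TPM with AOAH from 49.0 to 53.1 TPM with vehicle. The changes were -0.68 and -0.41 (limma adjusted p = 7.07e-04 and 6.66e-04). Mgst2, a microsomal glutathione transferase, fell by 0.35 with PC and by 0.66 with AOAH (limma adjusted p = 0.0120 and 0.00521), the first of which was lost in a single fit over all 11 libraries. Gstp1, a cytosolic transferase, fell by 0.17 with PC (limma adjusted p = 0.00773). In the authors' deposited table the falls of Mgst2 and Gstp1 with PC did not pass (adjusted p = 0.218 and 0.204). The 1 gene of the list that rose with PC, Chac1, degrades glutathione and is induced by ATF4, and it reached 4.63 to 5.64 TPM against 1.81 to 3.12 TPM with vehicle (change 0.81, limma adjusted p = 0.0130). Gsr, glutathione reductase, rose by 0.12 with AOAH (limma adjusted p = 0.0164), a call lost with the block (adjusted p = 0.0517).

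Of the 2 thioredoxin genes of the set, Srxn1 was called with PC and Txnrd1 was not. Txnrd1, cytosolic thioredoxin reductase, read 214, 216 and 216 TPM with PC, 214, 203, 214 and 206 TPM in vehicle libraries and 215, 229, 225 and 229 TPM with AOAH. The PC libraries overlapped the vehicle libraries, and AOAH 1, at 214.64 TPM, lay just above the highest vehicle library, at 214.45 TPM. With PC the change was 0.033 (95% interval -0.038 to 0.10, limma adjusted p = 0.493). With AOAH Txnrd1 rose by 0.10 (SE 0.030, limma adjusted p = 0.0399), a call lost with the block (adjusted p = 0.102), under quantile normalization, with no filter and without AOAH 2, 3 or 4 or vehicle 2 or 4. Srxn1, which restores overoxidized peroxiredoxins and whose promoter holds the 2 AP-1 sites shown above, read 11.5, 10.4 and 11.8 TPM with PC, 9.30, 9.29, 9.31 and 8.15 TPM in vehicle libraries and 8.77, 8.52, 6.40 and 6.91 TPM with AOAH. It rose by 0.25 with PC (SE 0.067, limma adjusted p = 0.0443), which held in 8 of 16 alternatives and neither with the block (adjusted p = 0.0959) nor without any 1 of the libraries PC 1, PC 3 and vehicle 1 to 3. With AOAH its change was -0.22 (limma adjusted p = 0.139).

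Of the 10 other thioredoxin genes, 4 were higher and 0 lower with PC, and 1 was higher and 2 lower with AOAH. Txnip, which binds thioredoxin and also limits glucose uptake, was 86.3 to 97.1 TPM with PC, 64.5 to 73.1 TPM in vehicle libraries and 31.3 to 34.2 TPM with AOAH. It rose by 0.42 with PC and fell by 1.05 with AOAH (limma adjusted p = 0.00538 and 1.00e-05). The peroxiredoxins Prdx1 and Prdx6, which reduce peroxides, rose with PC by 0.16 and 0.18 (limma adjusted p = 0.0218 and 0.00930), that of Prdx1 not without PC 1 or PC 3. Sesn2, a sestrin induced by stress, rose by 0.70 with PC (limma adjusted p = 0.00145), and Sesn1, a sestrin under FOXO and p53, fell by 0.57 with AOAH (limma adjusted p = 1.51e-04). Txnl1, a thioredoxin-like protein bound to the proteasome, rose by 0.19 with AOAH (limma adjusted p = 0.00317).

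**Figure D3:**
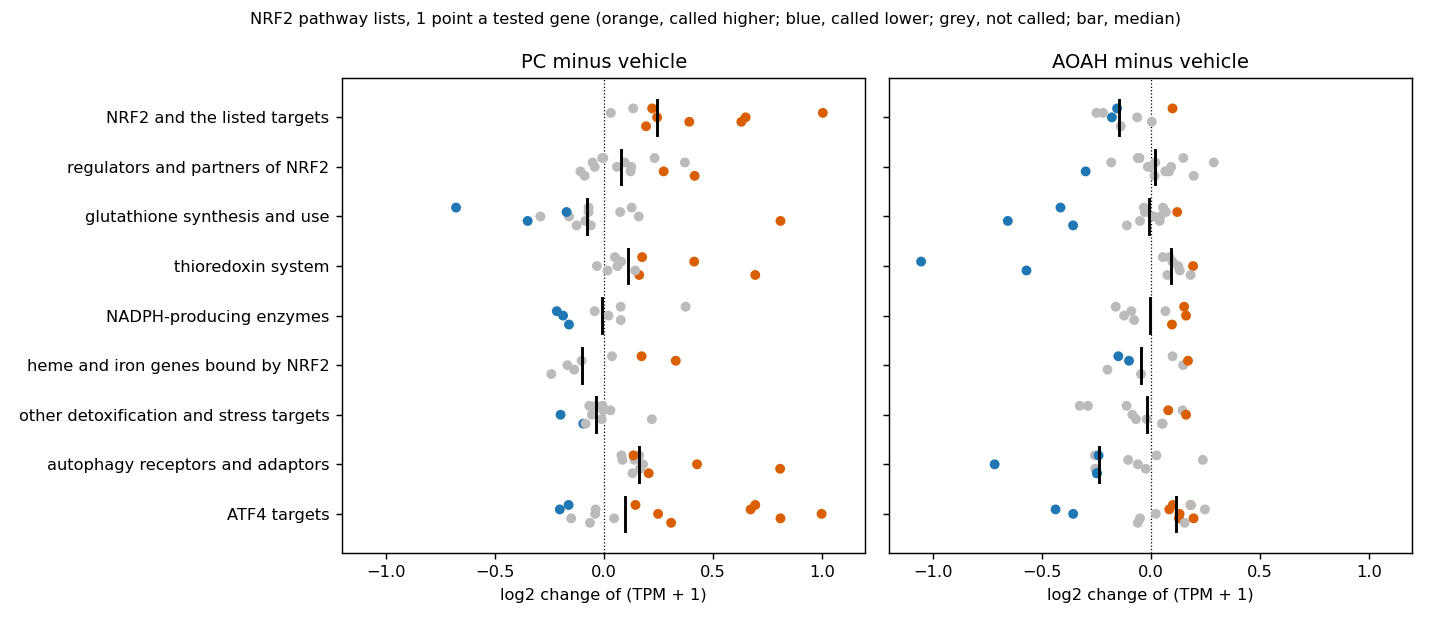
Log2 change of TPM + 1 against vehicle for every tested gene (points) of NRF2 and the listed targets and of 8 related lists, with the list's median as a bar and the limma call as colour. The listed targets lie mostly above 0 with PC (median 0.25), and the median of the 11 autophagy genes is 0.16 with PC and -0.24 with AOAH, where 2 of the 11 lie above 0.

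Nqo1, a quinone reductase widely used as a readout of NRF2, was scarce in these cells. It read 1.77, 2.16 and 1.84 TPM with PC, 0.99, 0.92, 0.75 and 0.78 TPM in vehicle libraries and 0.71, 0.50, 0.39 and 0.56 TPM with AOAH. The 3 groups did not overlap. The rise with PC was 0.63 (SE 0.12, limma adjusted p = 0.0144), a ratio of 2.17 in mean TPM, and was lost without PC 2 or vehicle 3 (adjusted p = 0.0588 and 0.0503). With AOAH Nqo1 was under the filter, and without a filter its change was -0.27 (limma adjusted p = 0.121). Esd, an esterase that completes the glutathione-dependent removal of formaldehyde, was the most abundant gene of the set. It read 446, 468 and 465 TPM with PC, 348, 367, 336 and 363 TPM in vehicle libraries and 346, 340, 330 and 337 TPM with AOAH. Esd rose by 0.39 with PC (SE 0.038, limma adjusted p = 0.00146) in every alternative, and the AOAH and vehicle libraries overlapped, with a change of -0.062 (limma adjusted p = 0.179).

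The remaining lists hold detoxification targets and NADPH-producing enzymes. At 8.26% of all genes called higher with PC, lists of this size hold about 1 such call or none. Of 11 tested detoxification genes, 0 were higher and 2 lower with PC and 2 were higher and 0 lower with AOAH, and batch as a block left none of these 4 calls. Among them Cbr1, a carbonyl reductase, changed by -0.20 with PC (limma adjusted p = 0.0310, and 0.0790 with the block), and Adh5, which acts just before Esd on formaldehyde, changed by 0.080 with AOAH (limma adjusted p = 0.0495, and 0.0815 with the block). In the authors' deposited tables none of the 4 calls passed (adjusted p = 0.535 for Cbr1, 0.499 for Akr1b3, 0.223 for Ugdh and 0.372 for Adh5). Other genes of the list were called there. Abcc1 was higher with PC (0.25, adjusted p = 0.0461 in the authors' deposited table). Aldh3a2 and Abcc5 were lower with AOAH (-0.35 and -0.31, adjusted p = 0.0320 and 0.0390 in the authors' deposited table). Of 8 tested NADPH genes, 0 were higher and 3 lower with PC: Tkt, transketolase, by -0.16, Mthfd1, a folate enzyme, by -0.19, and Idh2, mitochondrial isocitrate dehydrogenase, by -0.21 (limma adjusted p = 0.0101, 0.00942 and 0.0201), the last lost without PC 2, vehicle 1 or vehicle 3. With AOAH 3 were higher and 0 lower, among them Tkt by 0.097 and Mthfd1 by 0.16 (limma adjusted p = 0.00968 and 0.0149). Quantile normalization turned that count to 0 higher and 2 lower, with Tkt, Mthfd1 and G6pdx above 0 and no longer called. In the authors' deposited tables Tkt and Mthfd1 passed with PC (adjusted p = 0.0224 and 0.00878), and Idh2 did not (adjusted p = 0.134). With AOAH Mthfd1 passed there (adjusted p = 0.00251), and Tkt and G6pdx did not (adjusted p = 0.0689 and 0.0754).

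Slc7a11, Chac1 and Sesn2 are also known targets of ATF4, a transcription factor of the integrated stress response. Of 14 tested genes on the ATF4 list, 7 were higher and 2 lower with PC, and 6 were higher and 2 lower with AOAH. The calls of lowest p with AOAH were rises of Psat1 (0.18), Mthfd2 (0.20), Slc7a5 (0.13) and Phgdh. Those with PC were rises of Trib3, Sesn2 and Slc3a2 and a fall of Phgdh. Between AOAH and PC 6 of the 14 were higher and 6 lower, where 45.8% of all genes were called in either direction. Trib3 (-1.30) and Ddit3 (-1.10) were lower with AOAH than with PC, and Mthfd2 (0.33) and Phgdh (0.28) were higher. The ATF4 list is not separate from those above, since Sesn2 is also on the thioredoxin list and its rise with PC is counted in both. Trib3, a pseudokinase, was 10.1 to 10.7 TPM with PC against 4.45 to 5.67 TPM with vehicle (change 1.00, limma adjusted p = 7.07e-04). Phgdh, a serine synthesis gene, changed by -0.20 with PC, against most calls there, and by 0.085 with AOAH (limma adjusted p = 0.00258 and 0.0115). Quantile normalization ended the calls of Phgdh and Slc7a5 with AOAH (limma adjusted p = 0.247 and 0.0823). In the authors' deposited table Phgdh did not pass with AOAH (adjusted p = 0.138). The ATF4 calls and the calls of the 10 genes share libraries, and their relation was not tested.

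AOAH and PC were also set against each other without the vehicle libraries. Of 9 tested genes, 8 were lower and 0 higher with AOAH than with PC, where 21.5% of 11596 genes were called lower, 24.3% higher and 45.8% in either direction. The median change was -0.44, against 0.0027 over all genes. Nqo1 passed the level filter here too only through the PC libraries, and without it 7 of 8 were lower, with a median of -0.40. Hmox1 differed by -1.22 (SE 0.13, limma adjusted p = 2.08e-04), Nqo1 by -0.93, Sqstm1 by -0.81, Srxn1 by -0.51, Esd by -0.44, Gclc by -0.36, Nfe2l2 by -0.27 and Gclm by -0.17, with adjusted p from 7.09e-06 for Sqstm1 to 0.0172 for Gclm. Gclm lost its call with the batch block, which drops AOAH 4 (adjusted p = 0.0549), and without PC 1 or PC 3. The other 7 kept theirs in each alternative in which they were tested, which for Nqo1 leaves out the 5 TPM filter and the fit without PC 2, where it fell under the filter. The libraries of the 8 genes did not overlap between the groups. Groups that do not overlap made up 50.7% of all genes in this comparison. Nfe2l2 itself was at 15.8 to 17.4 TPM with AOAH against 19.3 to 21.8 TPM with PC. For Txnrd1 the change was 0.059 (95% interval -0.0066 to 0.12, limma adjusted p = 0.127), and quantile normalization turned its sign (-0.019).

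Among the related lists, the direct comparison gave 9 of 11 autophagy genes lower and 0 higher with AOAH, and 5 of 14 regulators lower and 1 higher, the latter close to the 45.8% of all genes called in either direction. All 6 T cell receptor, CD3 and CD8 genes were also lower with AOAH than with PC (median -0.37), and so was the myeloid gene Lyz2 (-1.01, limma adjusted p = 0.0217). Lyz2 passed the level filter only through the PC libraries. Its call was kept in 10 of the 13 alternatives that tested it and lost with no filter and without AOAH 1 or AOAH 3. The part of these T cell and myeloid genes in the differences of the 10 genes was not tested. Calcoco1 (-1.13), Map1lc3a (-0.996), Ftl1 (-0.42), Fth1 (-0.31) and Bach1 (-0.45) were lower with AOAH than with PC, and Hmox2 (0.29), Tkt (0.26), Gsr (0.19) and Glrx (0.25) were higher. Mafg, a small MAF partner of NRF2, was lower by -0.29 (limma adjusted p = 0.0188), which was lost with the block (adjusted p = 0.0616).

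For the 10 genes the authors' deposited tables, made on counts, gave the same signs with fewer calls. For PC all 10 genes had a positive fold change and 5 passed at an adjusted p under 0.05, where 5.74% of 11109 genes were called higher in the authors' deposited table. Those were Sqstm1 (0.67, adjusted p = 5.31e-25), Esd (0.41, 3.88e-08), Hmox1 (1.22, 3.34e-04), Slc7a11 (1.46, 0.0191) and Gclc (0.24, 0.0373) in the authors' deposited table. Nqo1 (1.13, adjusted p = 0.167), Gclm (0.21, 0.170) and Srxn1 (0.28, 0.246) did not pass in the authors' deposited table, though they did with limma. For AOAH the authors' deposited table gave 8 negative and 2 positive fold changes, and only Sqstm1 passed (-0.18, adjusted p = 0.00662), where 8.68% of 12492 genes were called lower in the authors' deposited table.

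**Figure D4:**
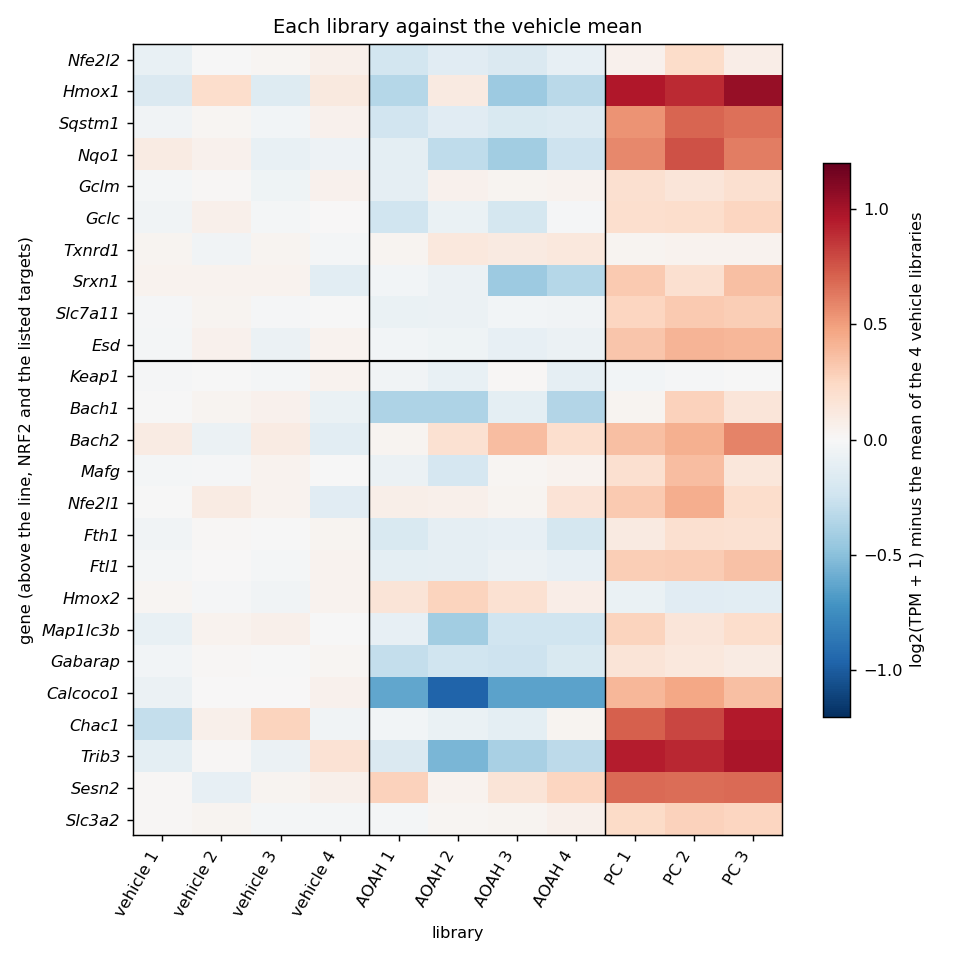
Log2(TPM + 1) of each library minus the mean of the 4 vehicle libraries, for the 10 genes (above the line) and 15 related genes (below it), with 1 column a library. Red is higher and blue lower than the vehicle mean; the 3 PC columns are red for all of the 10 genes, faintly for Txnrd1, while the AOAH columns are mostly pale blue, with Txnrd1 red.

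Across the 11 libraries the genes other than Txnrd1 correlated positively in all of their 36 pairs. The median Pearson r of log2(TPM + 1) over those pairs was 0.87 (0.52 to 0.99), and over the 9 pairs with Txnrd1 it was -0.27 (-0.44 to 0.046). These are descriptions over libraries of 3 treatments, so shared treatment differences enter every pair. No share over pairs of other genes was computed, so the correlations do not set these genes apart. Genes outside the set reached values as high, such as Ppib and Cd53 with Sqstm1 (r = 0.99 for both). Among 8503 other genes of at least 5 TPM, those most like Nfe2l2 were Snx17 (r = 0.97), an endosomal sorting protein, Ppp1r9b (0.97), Commd4 (0.96), Fam98c (0.95) and Sntb1 (0.95). Those most like Hmox1 were Ppib (r = 0.97), a prolyl isomerase of the endoplasmic reticulum, the histone gene H2ac19 (0.97), which has close paralogs, Plekha1 (0.97), Hmg20b (0.97) and Cd53 (0.96), a tetraspanin of leukocytes.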

How the data were processed

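RNA of 11 libraries was measured by paired reads of 150 bp. The authors deposited log2 values of TPM plus 1 from RSEM on build mm39, per the submitters' processing notes. Per the file headers, the authors' deposited DESeq2 output gives the mean normalized count (a signal), the log2 fold change, its standard error (an other measure), the Wald score and the p-value. The aligner, the annotation and any use of molecular identifiers were not given in the sources used here.

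Values were tested with limma 3.58.1 in R 4.3.3 (trend, robust, two-sided, Benjamini-Hochberg over all genes at a mean of at least 1 TPM). Intervals are 95%. AOAH was compared with vehicle 1 to 4, PC with vehicle 1 to 3, and AOAH with PC. The method was tested on simulated data. Genes named were the 10 targets, up to 4 called genes of lowest p per list and comparison, and the 5 most alike to Nfe2l2 and to Hmox1. Keap1, single marker genes, genes called only in the authors' deposited tables and repeats of a named gene in another comparison were added after their values were seen. The genes and lists were chosen with earlier results of these data known.

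The labels number batches 1 to 4, and libraries of the same number were taken as pairs across groups, which the labels do not state. Deviations from group means correlated at -0.0033 on average in 10 same-batch pairs (-0.079 to 0.12) and 0.0011 in 30 other pairs, and a batch block was run as an alternative. Further settings tried were a pseudocount of 0.1 or 5, a filter of 5 TPM or none, unweighted TMM rescaling, quantile normalization, 1 fit over all libraries, array weights, the PC comparison with vehicle 4, and each library left out. The receptor repertoire table was not used here.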

Additional observations from a re-analysis of the deposited data

Results flagged for a closer look

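In groups of 4 libraries, a library was singled out where its gap to the nearest other as a share of the group's range exceeded Dixon's 95% critical value for 4. This held for 2 of the 20 groups examined, and chance gives about 1 in 20. Gclm in AOAH 1 was 39.75 TPM, below 43.8 to 44.5 TPM in the other AOAH libraries (gap 0.851 of the range). Srxn1 in vehicle 4 was 8.15 TPM, below 9.29 to 9.31 TPM in the other vehicle libraries (gap 0.983 of the range). Vehicle 4 is not in the PC comparison, and with it included the rise of Srxn1 with PC was 0.29 (limma adjusted p = 0.0242).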

How the results depend on the processing

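No called change of a named gene turned its sign under the alternatives that were run. Of 1928 gene values 1762 stayed on their side of the threshold, 165 lost it and 1 gained it. Of 147 counts 130 stayed within 1.5 times the main count. With AOAH the count of 3 called NRF2 genes became 1 with no filter, 1 under quantile normalization and 1 with batch as a block, and lay between 1 and 3 with a library left out. With PC the count of 7 became 4 with batch as a block and lay between 3 and 6 with a library left out, the lowest without vehicle 3. Over all genes the PC count of 2269 became 1339 with no filter and lay between 1274 and 2083 with a library left out (1405 without PC 2, 1387 without PC 3, 1274 without vehicle 1 and 1391 without vehicle 3). The other counts with a library left out were 2198 to 2643 for all genes with AOAH, 4446 to 5047 for all genes and 7 to 9 for NRF2 genes between AOAH and PC. For the genes of the 6 related NRF2 pathway lists they were 12 to 15 with AOAH, 13 to 16 with PC and 22 to 31 between AOAH and PC. The batch block gave 2300, 1572 and 4247 called genes in the 3 comparisons. It ended 5 calls of the 10 genes against vehicle and that of Gclm between AOAH and PC, and 15 of 93 calls of the named list genes. It changed no other call of the 10 genes. Gclm with AOAH, which was not called, kept its sign in 11 of 17 alternatives. Depth per library is unknown, so counting error of Nqo1 and Slc7a11, with 17.0 and 19.9 normalized counts on average in the authors' deposited AOAH table, could not be separated from the spread between libraries.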

Other observations

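The balance of the 2 subunits of glutamate-cysteine ligase can be read as a ratio of levels. Gclm over Gclc, both in TPM, was 1.86 ± 0.11 with AOAH (SD, n = 4), 1.62 ± 0.039 with PC (SD, n = 3) and 1.67 ± 0.058 with vehicle (SD, n = 4). The difference between AOAH and vehicle was 0.18 (exact permutation test, two-sided, p = 0.0571, 0.0857 adjusted over 3 comparisons). In this comparison 1 vehicle library lay above the lowest AOAH library. The smallest possible p of that exact permutation test, 0.0286, would not pass either once adjusted over the 3 comparisons. The test of AOAH against vehicle therefore could not pass, and no conclusion is drawn from it. Between PC and vehicle 1 to 3 the difference was -0.036 (exact permutation test, p = 0.4, where 0.1 is the smallest possible). Between AOAH and PC it was 0.24, with no overlap between the groups (exact permutation test, p = 0.0571, the smallest possible with 4 against 3, and 0.0857 adjusted), so this comparison could not pass. The ratio was chosen after the levels were seen.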
